A study of Mus musculus with 12 samples.

Results

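The genes described are 33 mouse genes for glutamate receptors and the small membrane proteins that ride with them: 4 AMPA receptor subunits, 6 NMDA receptor subunits, 5 kainate receptor subunits, 1 delta receptor, 6 metabotropic receptors, 9 AMPA receptor auxiliary subunits and 2 kainate receptor auxiliary subunits. They were listed by symbol and receptor family, with earlier results of these data known, and all 33 stood among the 24421 genes of the deposited count table. Whole hippocampal tissue was profiled by QuantSeq, which reads the 3′ end of each polyadenylated transcript. There were 12 libraries, 3 labelled as biological replicates of each of 4 genotypes: WT, 5xFAD, p75NTRko and 5xFAD/p75NTRko. All mice were 2 months old and all had received BrdU, a thymidine analog that marks dividing cells, so the WT controls carried that treatment too. 5xFAD mice carry mutant human transgenes of familial Alzheimer's disease driven by a neuronal Thy1 promoter, and p75NTRko denotes a knockout of Ngfr, the gene for the p75 neurotrophin receptor. The labels give neither the knockout allele, nor the sex, nor how animals map to libraries, so p-values measure the spread between these libraries.

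Glutamate is the main excitatory transmitter of the hippocampus. AMPA receptors carry the fast current, NMDA receptors admit calcium when glutamate and depolarization coincide, and kainate receptors act on both sides of the synapse. Metabotropic receptors signal through G proteins: the group I receptor Grm5 sits mainly after the synapse, whereas the group II receptors Grm2 and Grm3 and the group III receptors Grm4, Grm7 and Grm8 largely restrain transmitter release. Auxiliary subunits set the trafficking and gating of the channels they bind.

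Several checks of the libraries bear on every comparison. Gene counts summed to 4316739 to 6683613 per library, so that 3 counts, the limit that a count of 0 allows, equalled 0.446 to 0.690 CPM (counts scaled to a common library size by TMM). Member genes took 0.359% to 0.478% of the counts of a library. Ngfr stood at 5.95 to 10.5 CPM in the 6 libraries labelled p75NTRko or 5xFAD/p75NTRko and at 0.166 to 1.95 CPM in the other 6. This is opposite to a loss of its transcript, and the cause was not tested. The groups are therefore called p75NTRko-labelled and 5xFAD/p75NTRko-labelled here. Thy1, whose promoter drives the transgenes, stood at 1596 to 4019 CPM in the 6 libraries labelled as carriers and at 688 to 939.8 CPM in the others. Xist, the RNA of the inactive X chromosome, was high (360.4 to 439 CPM) in all 3 WT and all 3 5xFAD/p75NTRko-labelled libraries and in p75NTRko-labelled replicate 1, and low (1.53 to 3.58 CPM) in the other 5. Ddx3y, a gene of the Y chromosome, stood at 107 to 133 CPM in these 5 and at 0.325 to 1.33 CPM in the libraries with high Xist. By these transcripts the low class reads as male and the high class as female. The Xist class and the genotype therefore cannot be told apart between 5xFAD and WT, or between 5xFAD/p75NTRko-labelled and 5xFAD libraries. The interaction of transgene and receptor label also follows the Xist class, apart from p75NTRko-labelled replicate 1. The defining hippocampal markers were present: all 10 dentate gyrus, 8 CA1 and 9 CA2/CA3 markers passed the filter on low counts. The 13 choroid plexus markers, from tissue that adjoins the hippocampus, summed to 2421 to 5972 CPM in WT, 321 to 1944 in 5xFAD, 4459 to 7295 in p75NTRko-labelled and 177 to 7235 in 5xFAD/p75NTRko-labelled libraries, and 0 of 13 passed an unadjusted p under 0.05 in any test. The 10 oligodendrocyte markers summed to 4154 to 7170.3 CPM, 5419 to 7791, 6431 to 7796 and 4131 to 5371 CPM in the same order. The part of both in the members' differences was not tested.

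The promoters of Gria2, Gria4 and Cnih3 are shown because these 3 members were among those with the smallest p-values in a comparison and their RefSeq starts coincide with the gene starts of the annotation. Each line gives the 250 bases before the start on the gene's own strand, from RefSeq's GRCm38.p6 table, with every CG dinucleotide in capitals. The Gria2 window is chr3:80802836-80803085 on the minus strand, the Gria4 window is chr9:4796235-4796484 on the minus strand, and the Cnih3 window is chr1:181352378-181352627 on the plus strand.
Gria2: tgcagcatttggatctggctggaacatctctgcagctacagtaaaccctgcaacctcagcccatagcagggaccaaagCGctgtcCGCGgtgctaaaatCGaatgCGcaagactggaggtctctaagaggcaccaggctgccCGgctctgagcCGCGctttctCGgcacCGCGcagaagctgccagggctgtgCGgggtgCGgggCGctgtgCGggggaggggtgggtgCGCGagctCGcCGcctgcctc
Gria4: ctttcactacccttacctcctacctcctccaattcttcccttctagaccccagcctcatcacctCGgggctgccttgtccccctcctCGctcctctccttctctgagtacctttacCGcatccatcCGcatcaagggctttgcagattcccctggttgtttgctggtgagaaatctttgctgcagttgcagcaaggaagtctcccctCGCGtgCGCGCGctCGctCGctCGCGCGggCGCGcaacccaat
Cnih3: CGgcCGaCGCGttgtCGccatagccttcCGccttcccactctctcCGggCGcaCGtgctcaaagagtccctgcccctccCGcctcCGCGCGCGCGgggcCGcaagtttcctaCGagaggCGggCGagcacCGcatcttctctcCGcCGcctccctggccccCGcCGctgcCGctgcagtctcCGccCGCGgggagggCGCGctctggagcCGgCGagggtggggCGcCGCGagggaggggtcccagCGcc
The windows hold 19, 16 and 36 CG dinucleotides, respectively, against a median of 6 over 32851 windows of the same length and a median of 16 over the 25 windows of the 21 members found in the table. The GC box GGGCGG, sought on both strands, stood in 14 of the 25 member windows and in 32.7% of all windows. TATAAA and the cyclic AMP response element TGACGTCA stood in 0 member windows, against 12.4% and 1.55% of all windows. These matches describe letters and identify no binding site. In GENCODE M21 (GRCm38), the genes to which the results return most often are Gria2 (ENSMUSG00000033981.14) at chr3:80681450-80802835, Gria4 at chr9:4417896-4796234, Grm4 (ENSMUSG00000063239.17) at chr17:27422387-27521403 and Shisa6 (ENSMUSG00000053930.13) at chr11:66211725-66525964, all on the minus strand, and Gria1 (ENSMUSG00000020524.16) at chr11:57011387-57330244 on the plus strand. QuantSeq reads fall at the 3′ ends of such genes.

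Because QuantSeq yields about 1 fragment per transcript end, CPM carry no gene-length term and levels of different genes can be set side by side, as far as the annotation places each 3′ end. Gria1, the GluA1 subunit and the most abundant member at a mean of 1017 CPM over the 12 libraries, exceeded Grm5 (806 CPM) in 11 of 12 libraries. Grm5 exceeded Gria2, the GluA2 subunit that makes AMPA receptors impermeable to calcium (634 CPM), in 12 of 12. Gria3, the X-linked GluA3 subunit, followed at 389 CPM, below Gria2 in 11 of 12 libraries and above Cnih2 in 12 of 12. Cnih2, a cornichon (244 CPM), and Grin2b, the GluN2B subunit (232 CPM), were ordered that way in only 8 of 12 libraries. Cacng2, which encodes stargazin (151 CPM), lay below Grin2b and above Shisa6 (96.0 CPM) in 12 of 12. From Shisa6 down to Grik1 (9.31 CPM), the last member that passed the filter, the mean levels of neighbours were close: each neighbour pair kept its order in 4 to 9 of 12 libraries.

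**Figure D1:**
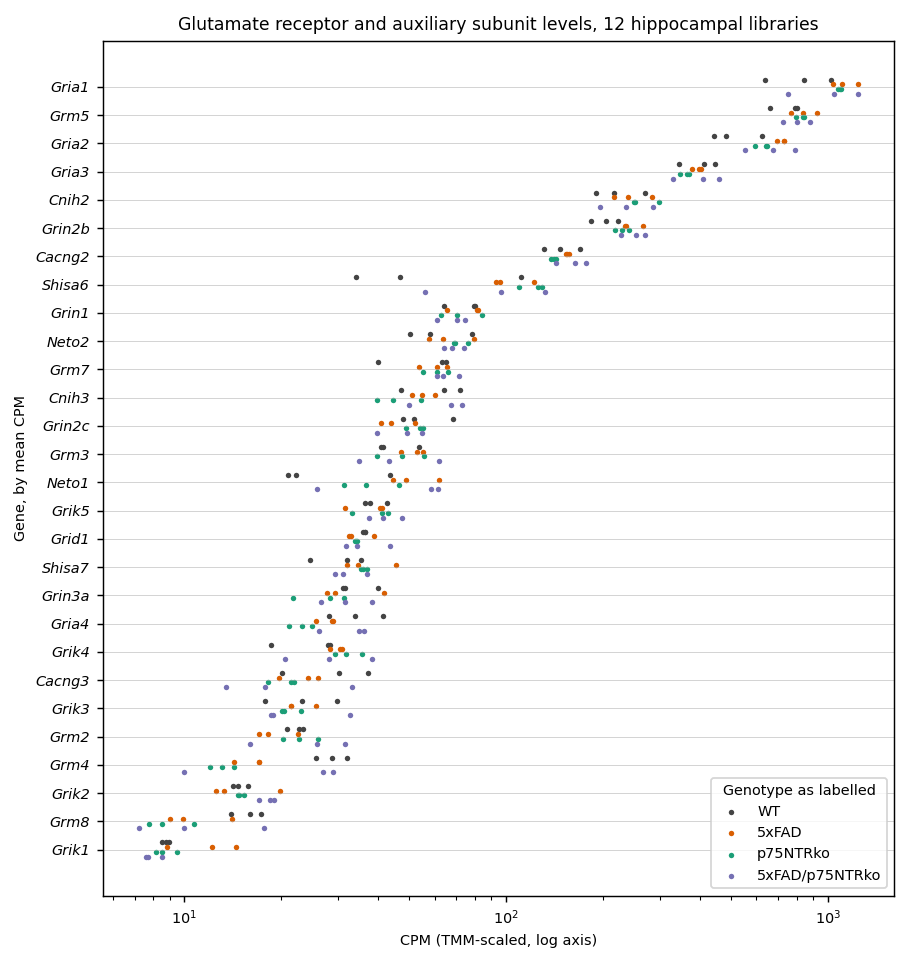
Level of the 28 tested members in each of the 12 libraries, on a log axis of CPM, coloured by genotype and ordered by mean level. The means run from 1017 CPM for Gria1 to 9.31 CPM for Grik1, and the points of the 4 genotypes are interleaved for most members.

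Within families the counts were unevenly divided. Grin2a and Cacng8, with 50 and 6 counts in all 12 libraries together, hardly enter the NMDA and AMPA auxiliary sums. The shares therefore describe reads counted at annotated 3′ ends, not the make-up of receptors. Gria1 made up 48.8% of the AMPA subunit CPM on average (40.5% to 52.4% by library), Gria2 30.5%, Gria3 19.2% and Gria4 1.47%. The Gria1 levels were 639, 844 and 1026 CPM in the WT, 1109, 1039.6 and 1238 in the 5xFAD, 1095, 1077 and 1095 in the p75NTRko-labelled and 1046, 1245 and 749.7 in the 5xFAD/p75NTRko-labelled libraries. WT replicates 1 and 2 and 5xFAD/p75NTRko-labelled replicate 3 were the 3 lowest, and the other 9 libraries all lay at 1026 CPM or above.

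Among NMDA subunits, Grin2b made up 59.7% of the CPM, and Grin1, the GluN1 subunit that every NMDA receptor needs, 18.8%. Grin2b stood at 204, 183 and 223 CPM in the WT, 236, 234 and 267 in the 5xFAD, 219, 229 and 241 in the p75NTRko-labelled and 253, 269.8 and 227 in the 5xFAD/p75NTRko-labelled libraries. Every library held more Grin2b than Grin1, whose levels ran from 60.8 to 83.9 CPM. Grin2c, a subunit best known from cerebellum and astrocytes, averaged 50.5 CPM, and Grin3a, a subunit that lowers calcium entry, 31.6 CPM.

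Of the kainate subunit CPM, Grik5 held 33.9% and Grik4, also a high-affinity subunit, 24.9%. Grik5 stood at 37.7, 42.7 and 36.5 CPM in the WT, 41.3, 31.5 and 40.6 in the 5xFAD, 33.2, 43.00 and 41.03 in the p75NTRko-labelled and 37.5, 47.4 and 41.3 in the 5xFAD/p75NTRko-labelled libraries, with overlapping ranges in the 4 genotypes. Grik3 (22.8 CPM), Grik2 (15.8 CPM) and Grik1 (9.31 CPM), which encode the subunits that can form kainate channels on their own, were lower. Neto2 and Neto1, the kainate receptor auxiliary subunits, held 62.5% and 37.5% of their summed CPM. Neto2 stood at 78.6, 50.1 and 57.9 CPM in the WT, 57.4, 63.7 and 79.7 in the 5xFAD, 69.1, 68.98 and 76.3 in the p75NTRko-labelled and 63.9, 73.9 and 67.9 in the 5xFAD/p75NTRko-labelled libraries, again overlapping between genotypes.

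Grm5 held 83.1% of the metabotropic receptor CPM. Its levels were 659.9, 793 and 801 CPM in the WT, 769, 836 and 926 in the 5xFAD, 798, 844 and 839.6 in the p75NTRko-labelled and 802, 877 and 726 in the 5xFAD/p75NTRko-labelled libraries, with WT replicate 1 the lowest. Grm7 averaged 60.6 CPM, Grm3 47.8, Grm2 22.2, Grm4 20.0 and Grm8 11.8 CPM. The delta receptor Grid1, an organizer of synapses, stood at 36.3, 36.03 and 36.3 CPM in the WT, 38.9, 33.1 and 32.4 in the 5xFAD, 34.3, 34.03 and 34.2 in the p75NTRko-labelled and 31.8, 34.3 and 43.4 in the 5xFAD/p75NTRko-labelled libraries, and all but 1 library (43.4 CPM) lay at 38.9 CPM or below.

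Cnih2 led the AMPA auxiliary subunits with 40.1% of their CPM, ahead of Cacng2 with 25.1% and Shisa6 with 15.5%. Cnih2 stood at 189.6, 216 and 270.4 CPM in the WT, 239.9, 216 and 284 in the 5xFAD, 252, 249 and 298 in the p75NTRko-labelled and 236, 285 and 196 in the 5xFAD/p75NTRko-labelled libraries, and WT replicate 1 and 5xFAD/p75NTRko-labelled replicate 3 were the lowest. Cnih3 averaged 56.5 CPM, Shisa7 34.2 CPM and Cacng3 23.6 CPM.

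Means ± SD (n = 3) of the other tested members, in the order WT, 5xFAD, p75NTRko-labelled and 5xFAD/p75NTRko-labelled, were as follows. The AMPA subunit Gria3 averaged 401 ± 51.2, 394 ± 12.9, 361 ± 11.9 and 399 ± 64.6 CPM. Of the NMDA subunits, Grin1 averaged 74.4 ± 8.99, 76.1 ± 9.34, 72.3 ± 10.8 and 68.6 ± 7.10 CPM, Grin2c 55.9 ± 10.9, 45.6 ± 5.84, 52.6 ± 3.40 and 47.9 ± 7.5 CPM and Grin3a 34.2 ± 4.94, 33 ± 7.57, 27.1 ± 4.95 and 32.1 ± 5.95 CPM. The kainate subunits Grik3 and Grik4 gave the next values: Grik3 averaged 23.6 ± 6.0, 22.9 ± 2.48, 21.2 ± 1.60 and 23.4 ± 8.09 CPM and Grik4 24.9 ± 5.55, 29.9 ± 1.35, 32.3 ± 3.28 and 28.9 ± 8.88 CPM. Of the metabotropic receptors, Grm3 averaged 45.3 ± 7.25, 51.8 ± 4.18, 47.6 ± 7.82 and 46.7 ± 13.9 CPM and Grm7 56.1 ± 13.9, 60.1 ± 6.01, 60.7 ± 5.38 and 65.2 ± 5.41 CPM. Of the AMPA auxiliary subunits, Cacng3 averaged 29.2 ± 8.62, 23.3 ± 3.29, 20.5 ± 2.01 and 21.5 ± 10.3 CPM and Shisa7 30.7 ± 5.48, 37.4 ± 7.08, 36.1 ± 0.745 and 32.4 ± 3.93 CPM. These 10 members had an unadjusted edgeR p above 0.05 in all 6 comparisons that have a direction and in the test of any difference.

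The remaining 5 members did not pass the filter and were not tested. Grin2a had 50 counts in all 12 libraries together (1 to 13 per library), Cacng4 had 37, Cacng7 had 13, Cacng8 had 6 and Grin2d had 1. Grin2a (GluN2A) and Cacng8 (the TARP γ-8) are known as abundant hippocampal proteins. In the same libraries 28.9% to 33.5% of the reads fell outside annotated features; the part of this in the low counts was not tested, and no statement on the absence of these transcripts is made from them.

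The spread between libraries of a genotype was near that of other genes: the median within-genotype SD of log2 CPM (with 2 counts added) was 0.219 over the 28 tested members and 0.216 over all 13065 tested genes. It was largest for Shisa6 (0.551), Neto1 (0.489), Grm4 (0.439) and Cacng3 (0.416), and smallest for Grin2b (0.115). For Shisa6, an AMPA receptor auxiliary subunit, the 3 WT libraries alone spanned 1.69 log2 units, more than the 1.10 between the highest and lowest genotype mean. The corresponding values were 1.04 within WT against 0.90 between means for Neto1, and 1.51 within the 5xFAD/p75NTRko-labelled libraries against 1.11 between means for Grm4.

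**Figure D2:**
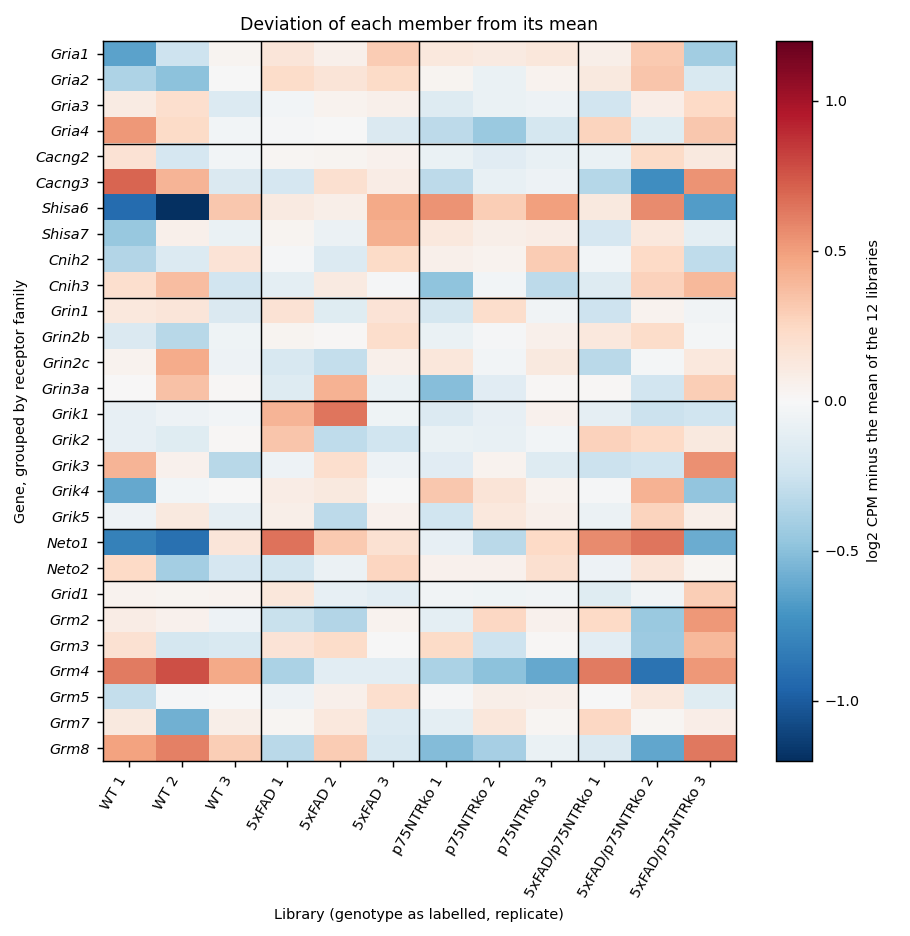
Log2 CPM of the 28 tested members in each of the 12 libraries, shown as the deviation from the member's mean over all libraries, with rows grouped by receptor family. WT replicates 1 and 2 and 5xFAD/p75NTRko-labelled replicate 3 share low Shisa6, Neto1 and Gria1 and high Cacng3 and Grm8.

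A set of members varied with region markers across genotypes. The 12 neocortex markers summed to 1153 to 1596 CPM in WT replicates 1 and 2 and 5xFAD/p75NTRko-labelled replicate 3, and to 692 to 938 CPM in the other 9 libraries. Only 4 of the 12 had their 3 highest values there, and Mef2c, at 635 to 938 CPM against 221 to 443 CPM, made up most of the sum in the 3 libraries. Hs3st4 lay at 112 to 150.1 CPM against 128 to 199 CPM. In the markers' mean log2 CPM, centred over the libraries, WT replicate 1 and 5xFAD/p75NTRko-labelled replicate 3 stood at 0.786 and 0.823. WT replicate 2 stood at 0.143, nearer to the next library, 5xFAD replicate 2 (-0.016), than to those 2. In the same 3 libraries the 10 dentate gyrus markers summed to 305 to 312 CPM, against 387 to 515 CPM in the others. The 10 GABA neuron markers summed to 1927 to 1961 CPM, against 1547 to 1739.7 CPM. Only 5 of the 10 dentate gyrus markers had their 3 lowest values there, and only 3 of the 10 GABA neuron markers their 3 highest. Gad1 (237 CPM) and Gad2 (51.0 CPM) had their lowest values of the 12 libraries in WT replicate 2. No marker of these 3 lists was at or under 3 counts throughout. This split of the libraries was made after the data were seen and is a description, not a comparison of conditions. In these 3 libraries 5 of the 28 members took their 3 lowest values of 12 (4.29% of all tested genes did): Gria1, Gria2, Grik4, Shisa6 and Neto1. Another 3 members took their 3 highest values there (6.10% of all tested genes): Gria3, Grm8 and Cacng3, the last a TARP. Shisa6 stood at 46.9, 34.2 and 111 CPM in the WT, 95.8, 93.3 and 122 in the 5xFAD, 129, 109 and 126 in the p75NTRko-labelled and 96.8, 132 and 55.9 in the 5xFAD/p75NTRko-labelled libraries: 34.2 to 55.9 CPM in the 3 libraries and 93.3 to 132 CPM in the other 9, without overlap. Neto1 stood at 20.9 to 25.9 CPM in the 3 and 31.3 to 61.8 CPM in the 9, and Gria2 at 444 to 551 CPM and 593 to 790.4 CPM. In the opposite direction, Cacng3 stood at 30.3 to 37.2 CPM in the 3 libraries and 13.4 to 26.1 CPM in the 9. The AMPA subunits were thus divided, since Gria3 lay at 413 to 458 CPM in the 3 and 329.6 to 409 CPM in the 9, while Gria1 and Gria2 lay lower there. In bulk tissue, fewer cells of a type and less RNA per cell cannot be told apart.

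Grm4 was high in a wider set of libraries, which includes the 3 libraries highest in neocortex markers. Slc17a6, a vesicular glutamate transporter rich in thalamus and habenula, was above 40 CPM in 5 libraries, all 3 WT and 5xFAD/p75NTRko-labelled replicates 1 and 3. Grm4 was at 28.8, 32.1 and 25.7 CPM in the WT, 14.3, 17.1 and 17.04 in the 5xFAD, 14.3, 13.1 and 12.04 in the p75NTRko-labelled and 28.98, 9.94 and 26.9 in the 5xFAD/p75NTRko-labelled libraries. Those 5 libraries spanned 25.7 to 32.1 CPM, and the remaining 7 spanned 9.94 to 17.1 CPM. Slc17a6 and its limit were chosen after the data were seen, with the Grm4 values known, so this split is a description; 0.742% of all tested genes took their 5 highest values in the same libraries, a share that says nothing of how unusual Grm4 is. Rora stood at 164 to 223 CPM in the 5 libraries and 80.2 to 116 CPM in the 7, and 3 of the 16 thalamus and habenula markers, Slc17a6 included, had their 5 highest values there. The 16 markers summed to 411 to 965 CPM in the 5 and 303 to 432 CPM in the 7, so the sums overlapped. Grik4 was the member with its 5 lowest values in the same libraries (0.566% of all tested genes), although only narrowly, at 18.5 to 28.37 against 28.40 to 38.2 CPM.

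**Figure D3:**
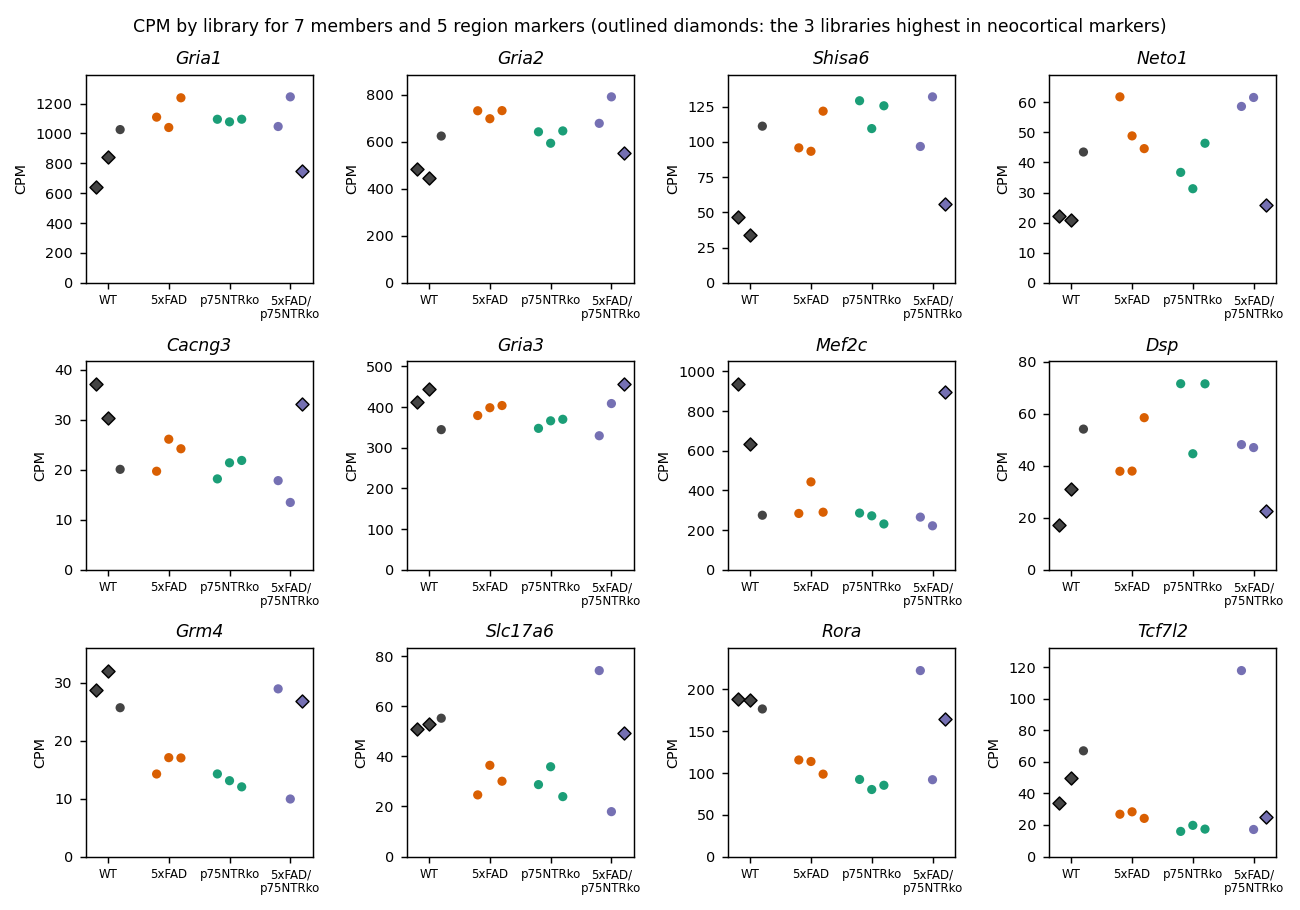
CPM by library for 7 members (Gria1, Gria2, Shisa6, Neto1, Cacng3, Gria3 and Grm4) and 5 region markers (Mef2c, Dsp, Slc17a6, Rora and Tcf7l2), coloured by genotype, with outlined diamonds for the 3 libraries highest in neocortex markers. Shisa6 lies at 34.2 to 55.9 CPM in the diamonds and at 93.3 CPM or above in the other libraries.

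Each genotype comparison was tested with edgeR's quasi-likelihood test over all 13065 genes, and a gene was called at a Benjamini-Hochberg adjusted p under 0.05. In 5xFAD against WT, where genotype and Xist class cannot be told apart, 0 of 28 members were called (0.0536% of all tested genes were), and DESeq2 also called 0. At an unadjusted p under 0.05 there were 6 members, or 21.4% against 13.9% of all tested genes: 5 were higher in 5xFAD (7.73% of all tested genes) and 1 was lower (6.14%). The members' median log2 fold change was 0.047, against -0.0036 over all tested genes. Libraries did not overlap for 5 members that were higher in 5xFAD (10.5% of all tested genes), namely Gria1, Gria2, Grik4, Grin2b and Neto1, and for 1 that was lower (9.02% of all tested genes), Grm4.

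The AMPA subunit Gria2 had the smallest p of the members in this comparison. Its levels were 483, 444 and 624 CPM in the WT, 731, 697 and 732 in the 5xFAD, 642, 593 and 646 in the p75NTRko-labelled and 678, 790.4 and 551 in the 5xFAD/p75NTRko-labelled libraries. All 3 5xFAD libraries lay above all 3 WT libraries, with a log2 fold change of 0.48 (SE 0.134, edgeR adjusted p = 0.213). WT replicate 3 was the highest WT library. Without it Gria2 was called (0.63, edgeR adjusted p = 0.0487), as was Shisa6, among 57 genes called. That adjusted p was the lowest of a range that reached 0.949 over all alternatives. Without the 3 libraries highest in neocortex markers the Gria2 value was 0.21. That setting leaves WT replicate 3 as the only WT library and removes the 3 lowest values of both Gria2 and Neto1, so the direction of their shift is fixed by the choice of libraries and the values are a description. Neto1, at 22.3, 20.9 and 43.5 CPM in the WT, 61.8, 48.8 and 44.6 in the 5xFAD, 36.7, 31.3 and 46.4 in the p75NTRko-labelled and 58.6, 61.6 and 25.9 in the 5xFAD/p75NTRko-labelled libraries, had a log2 fold change of 0.85 (SE 0.309, edgeR adjusted p = 0.280), which was 0.36 with the neocortex marker score as a term in the fit and 0.26 without the 3 libraries. Grin2b differed by 0.27 (SE 0.0993, edgeR adjusted p = 0.291), and by 0.14 without the 3 libraries. Grm4 differed by -0.84 (SE 0.271, edgeR adjusted p = 0.244), and by -0.38 with the thalamus and habenula marker score as a term. Those markers summed to 559 to 825 CPM in WT and 371 to 432 CPM in 5xFAD libraries, without overlap. The fit with their score can therefore hardly tell the score and the genotype apart.

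In p75NTRko-labelled against WT libraries, edgeR called 0 of 28 members and 0% of all tested genes. DESeq2 called 1 member, Grm4, among 55 genes called. At an unadjusted p under 0.05 there were 6 members, or 21.4% against 11.5% of all tested genes: 2 were higher in the p75NTRko-labelled libraries (5.33% of all tested genes) and 4 were lower (6.16%). The median log2 fold change was 0.0079 over the members and -0.00063 over all tested genes. Without overlap, Gria1, Grik4 and Shisa7 were higher (3 of 28, against 7.93% of all tested genes) and Gria4, Grid1, Grm4 and Grm8 were lower (4 of 28, against 8.50%).

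Grm4, Grm8 and the AMPA subunit Gria4 had lower means in the p75NTRko-labelled libraries, while Grm7, the other group III receptor, differed by 0.11 (SE 0.157, edgeR adjusted p = 0.806). Grm4 differed by -1.14 (SE 0.276, edgeR adjusted p = 0.221). DESeq2 gave an adjusted p of 0.0239 for it, and the edgeR adjusted p was 0.0401 with no filter on low counts and 0.0307 in a fit of these 2 genotypes only; over all alternatives it ran from 0.0239 to 0.816. With the thalamus and habenula score as a term the Grm4 value was -0.47, and the summed markers ranged from 325 to 381 CPM in the p75NTRko-labelled libraries. The score itself did not overlap between WT (4.20 to 4.51) and p75NTRko-labelled libraries (3.365 to 3.56). Within genotypes it varied most in the 5xFAD/p75NTRko-labelled libraries (3.14 to 4.76), so this fit can hardly tell the score and the genotype apart. Gria4, a subunit found in some interneurons and in thalamus, stood at 41.5, 33.9 and 28.2 CPM in the WT, 28.7, 28.9 and 25.7 in the 5xFAD, 23.2, 21.2 and 24.98 in the p75NTRko-labelled and 34.97, 26.1 and 36.2 in the 5xFAD/p75NTRko-labelled libraries, a difference of -0.58 (SE 0.161, edgeR adjusted p = 0.263). Grm8 stood at 15.99, 17.4 and 13.9 CPM in the WT, 8.999, 14.1 and 9.89 in the 5xFAD, 7.79, 8.51 and 10.7 in the p75NTRko-labelled and 9.99, 7.21 and 17.7 in the 5xFAD/p75NTRko-labelled libraries, a difference of -0.80 (SE 0.277, edgeR adjusted p = 0.344). With the neocortex score as a term these values were -0.37 for Gria4 and -0.42 for Grm8.

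Shisa6 was in the opposite direction in the same comparison, at 0.93 (SE 0.344, edgeR adjusted p = 0.364). WT replicate 3, at 111 CPM, overlapped the p75NTRko-labelled range of 109 to 129 CPM, and WT replicates 1 and 2 lay at 46.9 and 34.2 CPM. Without WT replicate 3 the value was 1.58 and was called, among 26 genes called (edgeR adjusted p = 0.0359). That adjusted p was the lowest of a range that reached 0.943 over all alternatives. Without the 3 libraries highest in neocortex markers, which leaves WT replicate 3 as the only WT library, it was 0.13. That choice removes the 3 lowest Shisa6 values, so the direction of the shift is fixed and the value is a description.

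In 5xFAD/p75NTRko-labelled against 5xFAD libraries, where genotype and Xist class again cannot be told apart, edgeR and DESeq2 each called 0 of 28 members (edgeR called 0.0383% of all tested genes). At an unadjusted p under 0.05 there was 1 member, or 3.57% of the 28 against 5.08% of all tested genes: 0 were higher (1.98% of all tested genes) and 1 was lower (3.10%). The median log2 fold change was 0.022 over members and 0.012 over all tested genes. The 1 member was Grik1, the GluK1 kainate subunit, which was at 8.52, 8.76 and 8.96 CPM in the WT, 12.2, 14.5 and 8.84 in the 5xFAD, 8.16, 8.51 and 9.51 in the p75NTRko-labelled and 8.49, 7.60 and 7.71 in the 5xFAD/p75NTRko-labelled libraries. The 5xFAD/p75NTRko-labelled libraries lay below all 5xFAD libraries (1 of 28 members, against 6.02% of all tested genes; 0 members lay wholly above, against 5.18%), with a log2 fold change of -0.58 (SE 0.194, edgeR adjusted p = 0.715). The next smallest p-values belonged to Grm2 at 0.35 (SE 0.204, edgeR adjusted p = 0.980), Grm4 at 0.46 (SE 0.276, edgeR adjusted p = 0.980) and Grik2 at 0.25 (SE 0.169, edgeR adjusted p = 0.988). Grm2, a presynaptic group II receptor, stood at 23.3, 22.7 and 20.9 CPM in the WT, 18.2, 17.1 and 22.5 in the 5xFAD, 20.2, 25.98 and 22.7 in the p75NTRko-labelled and 25.8, 15.98 and 31.5 in the 5xFAD/p75NTRko-labelled libraries, with overlapping groups, and its log2 difference was 0.13 without the 3 libraries highest in neocortex markers.

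In 5xFAD/p75NTRko-labelled against p75NTRko-labelled libraries, edgeR called 0 of 28 members and 0% of all tested genes, and DESeq2 called 0 members. At an unadjusted p under 0.05 there were 3 members, or 10.7% against 6.59% of all tested genes: 3 were higher in the 5xFAD/p75NTRko-labelled libraries (3.60% of all tested genes) and 0 were lower (2.99%). The members' median log2 fold change was 0.10, against 0.014 over all tested genes. In the same comparison 8 of the 10 oligodendrocyte markers were lower at an unadjusted p under 0.05, and 0 were called. Gria4 had the smallest p, with a log2 fold change of 0.49 (SE 0.162, edgeR adjusted p = 0.696), and its 5xFAD/p75NTRko-labelled libraries lay above the p75NTRko-labelled ones, as did those of Grik2 (2 of 28 members, against 6.54% of all tested genes; 0 lay wholly below, against 5.74%). Grm4 was at 0.75 (SE 0.281, edgeR adjusted p = 0.713). Its 5xFAD/p75NTRko-labelled replicate 2 (9.94 CPM) lay below, and replicates 1 and 3 above, the p75NTRko-labelled libraries. Without replicate 2 the value was 1.09 and was called, among 4 genes called (edgeR adjusted p = 0.0242, in a range up to 0.998 over all alternatives). Cnih3 stood at 64.1, 72.1 and 47.3 CPM in the WT, 51.1, 59.9 and 54.9 in the 5xFAD, 39.7, 54.3 and 44.6 in the p75NTRko-labelled and 49.96, 67.2 and 72.8 in the 5xFAD/p75NTRko-labelled libraries, a difference of 0.46 (SE 0.172, edgeR adjusted p = 0.713), with overlapping libraries. Cacng2, at 169.7, 131 and 147 CPM in the WT, 153, 155 and 156 in the 5xFAD, 143, 137 and 141 in the p75NTRko-labelled and 143, 177 and 163 in the 5xFAD/p75NTRko-labelled libraries, differed by 0.20 (SE 0.104, edgeR adjusted p = 0.806).

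In 5xFAD/p75NTRko-labelled against WT libraries, edgeR called 0 of 28 members and 0% of all tested genes, and DESeq2 called 0 members. At an unadjusted p under 0.05 there were 3 members, or 10.7% against 9.95% of all tested genes: 3 were higher than in WT (5.51% of all tested genes) and 0 were lower (4.44%). The median log2 fold change was 0.082 against 0.0042. The 4 smallest p-values belonged to Grin2b at 0.29 (SE 0.0992, edgeR adjusted p = 0.460), Gria2 at 0.38 (SE 0.134, edgeR adjusted p = 0.469), Neto1 at 0.75 (SE 0.308, edgeR adjusted p = 0.483) and Grik2 at 0.29 (SE 0.167, edgeR adjusted p = 0.555). Grik2, the GluK2 subunit, stood at 14.6, 14.1 and 15.8 CPM in the WT, 19.9, 12.6 and 13.3 in the 5xFAD, 14.8, 14.7 and 15.3 in the p75NTRko-labelled and 18.98, 18.5 and 17.1 in the 5xFAD/p75NTRko-labelled libraries. For Grin2b and Grik2 the libraries did not overlap and the 5xFAD/p75NTRko-labelled ones lay higher (2 of 28, against 5.95% of all tested genes), and for Grik1 they lay lower (1 of 28, against 5.53%). The 3 comparisons with WT share the WT libraries, and the Gria2 and Neto1 values without the 3 libraries highest in neocortex markers, against the 1 WT library left, were 0.24 and 0.47.

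**Figure D4:**
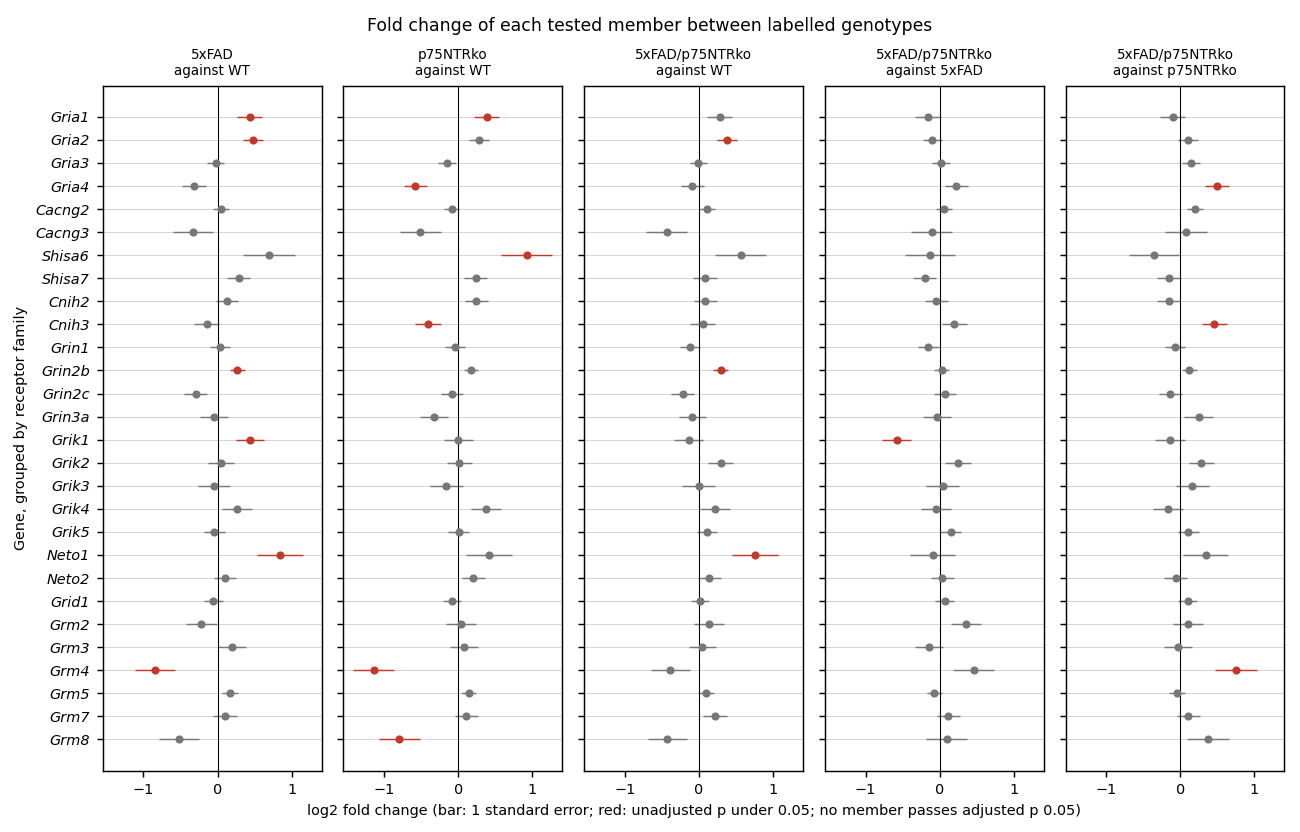
Log2 fold change ± SE of the 28 tested members in 5 comparisons between genotypes, with members at an unadjusted edgeR p under 0.05 in red and the fitted difference 0 marked. No member was called at an adjusted p under 0.05 in any panel. From left to right the red points number 6, 6, 3, 1 and 3. The panels are 5xFAD, p75NTRko-labelled and 5xFAD/p75NTRko-labelled against WT, then 5xFAD/p75NTRko-labelled against 5xFAD and against p75NTRko-labelled.

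The interaction tested whether the difference between transgene carriers and non-carriers was the same with and without the receptor label. The Xist class follows this contrast apart from p75NTRko-labelled replicate 1, so the 2 can hardly be told apart. Of 5 sex markers (Xist, Ddx3y, Uty, Eif2s3y and Kdm5d), edgeR called 4 in the interaction. edgeR called 0 of 28 members (0.0383% of all tested genes) and DESeq2 called 1, Grm4, among 25 genes called. At an unadjusted p under 0.05 there were 6 members, or 21.4% against 9.32% of all tested genes: 4 were above 0 (5.19% of all tested genes) and 2 below (4.13%). Grm4 had an interaction of 1.60 (SE 0.391, edgeR adjusted p = 0.327). DESeq2 gave Grm4 an adjusted p of 0.0477. Without 5xFAD/p75NTRko-labelled replicate 2 the Grm4 interaction was 1.93 (edgeR adjusted p = 0.00133, among 20 genes called). With the thalamus and habenula score as a term it was 0.74, under the limit of that score given above. With the Xist class as a term, which is estimated from the p75NTRko-labelled libraries alone, the Grm4 value was 1.29 (edgeR adjusted p = 0.998). The adjusted p of Grm4 ran from 0.00133 to 0.998 over all alternatives. Gria4 was at 0.80 (SE 0.227, edgeR adjusted p = 0.350), Cnih3 at 0.61 (SE 0.242, edgeR adjusted p = 0.491) and Grm8 at 0.89 (SE 0.394, edgeR adjusted p = 0.520). Without the 3 libraries highest in neocortex markers, which leaves 1 WT library and removes the 3 highest Grm8 values, these 3 values were 0.42, 0.12 and 0.27, a description of the remaining libraries. In the test for any difference among the 4 genotypes edgeR called 0 of 28 members (0.0995% of all tested genes), with 5 members at an unadjusted p under 0.05, or 17.9% against 10.4% of all tested genes. The lowest adjusted p was 0.270, for Grm4. DESeq2 called it (adjusted p = 0.0306), among 181 genes called. Without 5xFAD/p75NTRko-labelled replicate 2 edgeR called it too (adjusted p = 0.00771), among 26 genes called.

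Genes around the receptors were read from 3 lists. Of 28 postsynaptic scaffold genes, 25 were tested, and edgeR called 0 in each of the 7 tests. In 5xFAD against WT, 5 of 25 were higher (7.73% of all tested genes) and 2 lower (6.14%) at an unadjusted p under 0.05; the smallest p belonged to Dlg4, which encodes the scaffold PSD-95, at -0.78 (SE 0.191, edgeR adjusted p = 0.157). Dlg4 stood at 1065, 1105 and 818 CPM in the WT, 551, 561 and 632 in the 5xFAD, 612, 799 and 759 in the p75NTRko-labelled and 524, 604 and 977 in the 5xFAD/p75NTRko-labelled libraries, and every 5xFAD library lay below every WT library. Its 3 highest values were those of the 3 libraries highest in neocortex markers; their part in the difference was not tested. In p75NTRko-labelled against WT libraries, 3 of 25 were higher (5.33% of all tested genes) and 3 lower (6.16%), led by Grip2, which binds AMPA receptor tails, at -0.89 (SE 0.242, edgeR adjusted p = 0.258). Grip2 also had the smallest p in 5xFAD/p75NTRko-labelled against p75NTRko-labelled libraries (0.64, edgeR adjusted p = 0.713) and in the interaction (1.39, edgeR adjusted p = 0.331). Its levels were 17.8, 17.2 and 14.8 CPM in the WT, 8.66, 9.20 and 11.99 in the 5xFAD, 9.64, 9.20 and 8.03 in the p75NTRko-labelled and 11.8, 9.55 and 20.2 in the 5xFAD/p75NTRko-labelled libraries. Homer2, which ties group I metabotropic receptors to calcium stores, led 5xFAD/p75NTRko-labelled against 5xFAD at -0.33 (edgeR adjusted p = 0.686). Grip1 led 5xFAD/p75NTRko-labelled against WT at 0.43 (edgeR adjusted p = 0.368).

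All 15 genes of glutamate synthesis, uptake and vesicle loading were tested, and edgeR called 0 in each of the 7 tests, with 1 to 3 of the 15 at an unadjusted p under 0.05 in each comparison that has a direction, where 5.08% to 13.9% of all tested genes were. Got1, a transaminase that can form glutamate, had the smallest p in 5xFAD against WT (-0.21, edgeR adjusted p = 0.315), in both comparisons of 5xFAD/p75NTRko-labelled with single-label libraries (0.24 and 0.24, edgeR adjusted p = 0.751 and 0.711) and in the interaction (0.44, edgeR adjusted p = 0.331). Got1 stood at 403, 372 and 346 CPM in the WT, 315, 325 and 331 in the 5xFAD, 326, 329.7 and 317 in the p75NTRko-labelled and 388, 360.2 and 397 in the 5xFAD/p75NTRko-labelled libraries. Of 10 further receptor and auxiliary subunit genes, 7 were tested and edgeR called 0 in each test, with 0 or 1 of the 7 at an unadjusted p under 0.05. Shisa8, an AMPA receptor auxiliary subunit near the lower end of detection, stood at 2.24, 1.95 and 2.49 CPM in the WT, 2.38, 2.82 and 2.52 in the 5xFAD, 1.11, 1.38 and 1.34 in the p75NTRko-labelled and 0.833, 1.17 and 1.64 in the 5xFAD/p75NTRko-labelled libraries, with log2 differences of -0.79, -1.07 and -0.86 in the 3 comparisons it led (p75NTRko-labelled against WT, 5xFAD/p75NTRko-labelled against 5xFAD and against WT; edgeR adjusted p = 0.422, 0.715 and 0.485). The others with the smallest p were Gsg1l in 5xFAD against WT (-0.60, edgeR adjusted p = 0.526) and in the interaction (0.97, edgeR adjusted p = 0.613), and Cnih4 in 5xFAD/p75NTRko-labelled against p75NTRko-labelled libraries (-0.19, edgeR adjusted p = 0.870).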

How the data were processed

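Hippocampal tissue from 12 libraries (3 per genotype) was profiled by QuantSeq 3′ sequencing. The authors deposited 1 table of raw counts per gene, with the unassigned-read rows kept apart here: 61.5% to 67.8% of reads fell in those rows. FastQC, HISAT2, SAMtools, HTSeq, edgeR and the build mm10 are named, without versions or roles, per the submitters' processing notes; the annotation release and the strand setting are not given in the sources used here. All libraries carry 1 batch label. Positions came from GENCODE M21 (GRCm38): 17 members share exon bases with another gene on the same strand and 19 on the opposite strand, so their reads may be shared.

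Counts were filtered with filterByExpr (13065 of 24421 genes kept), scaled by TMM and fitted with edgeR 4.0.16 in R 4.3.3 with 1 mean per genotype, tested by quasi-likelihood with Benjamini-Hochberg adjustment over all genes. SE is the fold change divided by the root of the F statistic. DESeq2 1.42.0 was an alternative. The fitting code was tested on data simulated with 1 spread for all genes. In 5xFAD against WT it called 17% of 1.5-fold and 78.9% of 2-fold changes with the right sign. A member that was not called may therefore still differ. Library pairs of a genotype differed by more than sampling noise. Other alternatives were RLE scaling, no filter, a stricter filter (mean count of 50 or more), a fit of the compared genotypes alone, the replicate number, an Xist class (limit 50 CPM), a thalamus and habenula score, and leaving out each library. A neocortex score, and leaving out the 3 libraries highest in it, were chosen after seeing the data. Members, lists and the rule for named genes (the 4 smallest p-values of each comparison, and the most abundant member of each family) were chosen with earlier results of these data known. Replicate numbers were checked for pairing and none was seen, which does not exclude it. A further result on a listed gene is not reported here.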

Additional observations from a re-analysis of the deposited data

How the results depend on the processing

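Every value of a named member kept its sign under every setting tried; calls changed only as follows, and the cause was not tested. DESeq2 called 1 member, Grm4, in p75NTRko-labelled against WT, in the interaction and in the test of any difference. It called 55, 25 and 181 of all genes there, where the main edgeR fit called 0, 5 and 13. No filter, and a fit of only the compared genotypes, each called 1 member, Grm4, in p75NTRko-labelled against WT, among 46 and 21 genes called. Leaving out each library in turn gave 0 to 2 called members in 5xFAD against WT (Gria2 and Shisa6 without WT replicate 3). It gave 0 to 1 in p75NTRko-labelled against WT (Shisa6, same library). Without WT replicate 3, 57 and 26 of all genes were called in these comparisons. It also gave 0 to 1 in 5xFAD/p75NTRko-labelled against p75NTRko-labelled, in the interaction and in any difference (Grm4, without 5xFAD/p75NTRko-labelled replicate 2). There 4, 20 and 26 of all genes were called.

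Members' median log2 fold changes moved by more than 0.0561, the spread used, in these cases. The interaction median of 0.077 was 0.15 with no filter, -0.012 with the neocortex score, 0.0084 without the 3 libraries highest in it, and -0.067 to 0.092 leaving out each library. The median of 5xFAD/p75NTRko-labelled against p75NTRko-labelled (0.10) was 0.18 with the Xist class, 0.035 with the neocortex score, 0.029 without the 3 libraries, and 0.026 to 0.12 leaving out each library. Against WT (0.082) it was -0.0046 with the thalamus and habenula score and 0.015 to 0.12 leaving out each library. With the Xist class, the median of 5xFAD against WT was -0.021, and that of 5xFAD/p75NTRko-labelled against 5xFAD was 0.10; that term is estimated from the p75NTRko-labelled libraries alone.

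With the replicate number as a block, edgeR called 0 members in each of the 7 tests, and the Grm4 value in p75NTRko-labelled against WT was -1.15. Over 18 same-number pairs the correlation of deviations ran from -0.42 to 0.14, above 0.1 in 2. No pairing by number was seen, although such a check cannot exclude it. Grik1, the tested member with the lowest mean, had 37 to 77 counts per library (7.60 to 14.5 CPM), so counting adds to its spread. For scale, 3 counts are 0.446 to 0.690 CPM.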

Other observations

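Gsg1l, an AMPA receptor auxiliary subunit outside the member list, was picked after its values were seen. It stood at 70.1, 86.0 and 85.4 CPM in WT replicates 1 and 2 and 5xFAD/p75NTRko-labelled replicate 3, and at 20.7 to 50.1 CPM in the other 9 libraries, the same split of libraries as for Cacng3.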
